A study of Mus musculus with 8 samples.

Results

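Peroxisomal oxidation and biogenesis genes were described in brown adipose tissue (BAT) of wild-type (WT) and db/db mice. The 9 genes were chosen by name for their known roles, with earlier results of these data known, and all 9 were among the 31053 genes of the count table. They were the fatty acid activating and transport genes Slc27a2, Abcd2 and Abcd3, the beta-oxidation enzymes Ehhadh, Hsd17b4, Acaa1a and Acaa1b, and the biogenesis genes Pex5 and Pex11a.

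Each genotype was represented by 4 bulk RNA-seq libraries from BAT of male mice aged 8 weeks. WT mice were of the strain C57BL6/J, and db/db mice, strain B6.BKS(D)-Leprdb/J, carried a germline mutation of the leptin receptor gene Lepr in every cell, with overeating, obesity and diabetes. Both genotypes were kept on a normal diet and fasted before tissue collection. The study's sources differ on whether both strains came from the same vendor. Genotype, any difference in strain background or vendor, and obesity cannot be told apart in this design. One label field named the stromal vascular fraction, the non-adipocyte cells of fat, whereas the tissue field named BAT. Genes of mature adipocytes were abundant in every library, which a stromal vascular fraction would largely lack: the adipokine gene Adipoq lay between 1245 and 1828 CPM in WT and between 1684 and 2112 CPM in db/db, and the thermogenic gene Ucp1 between 1892 and 2754 CPM in WT and between 1056 and 2027 CPM in db/db.

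The 4 WT libraries held 2374079 to 2615009 counts and the 4 db/db libraries 2382722 to 3240074, a difference that did not pass an exact two-sided permutation test (p = 0.114, n = 4 against 4). A level of 3 counts, taken as the limit of detection, corresponded to 0.902 to 1.33 CPM, where CPM are counts scaled to a common library size that includes the TMM factor. Library db/db replicate 1 stood apart: the chi-square per degree of freedom of its gene counts against each other db/db library was 11.3 to 14.0, beside 5.80 to 7.72 between the others of that genotype and 3.99 to 7.77 within WT. The altered Lepr could not be checked, since it held 0 counts in all 8 libraries. The samples are described as separate mice, and p-values measure the spread between these samples.

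Peroxisomes are small organelles with a single membrane that shorten very-long-chain, branched and dicarboxylic fatty acids, and pass the shortened products to mitochondria. Acids are activated to acyl-CoA by enzymes such as Slc27a2, enter through the ABCD half-transporters, and undergo cycles of oxidation, hydration, dehydrogenation and thiolytic cleavage. The oxidation step yields hydrogen peroxide, which catalase removes. Matrix enzymes are made in the cytosol and imported by receptors such as Pex5, and Pex11 proteins elongate the membrane before division. In BAT, peroxisomes are numerous and increase with cold exposure, and many of their genes are known targets of the nuclear receptor PPARalpha.

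Of the 9 genes, 8 passed the filter on low counts and were tested, and 4 of the 8 passed the threshold of an adjusted p of 0.05 in edgeR's quasi-likelihood test, against 27.7% of all 9264 genes tested. Slc27a2 and Abcd3 were lower in db/db BAT (2 of 8, against 11.9% of all genes). Abcd2 and Hsd17b4 were higher (2 of 8, against 15.8% of all genes). Acaa1a, Acaa1b, Pex11a and Pex5 did not pass. The median log2 fold change of the 8 genes, db/db over WT, was -0.13, and that of all genes tested was 0.01. With library totals and no scaling factors the 4 calls became 1 higher and 3 lower, since Pex11a was gained and Hsd17b4 was lost.

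**Figure D1:**
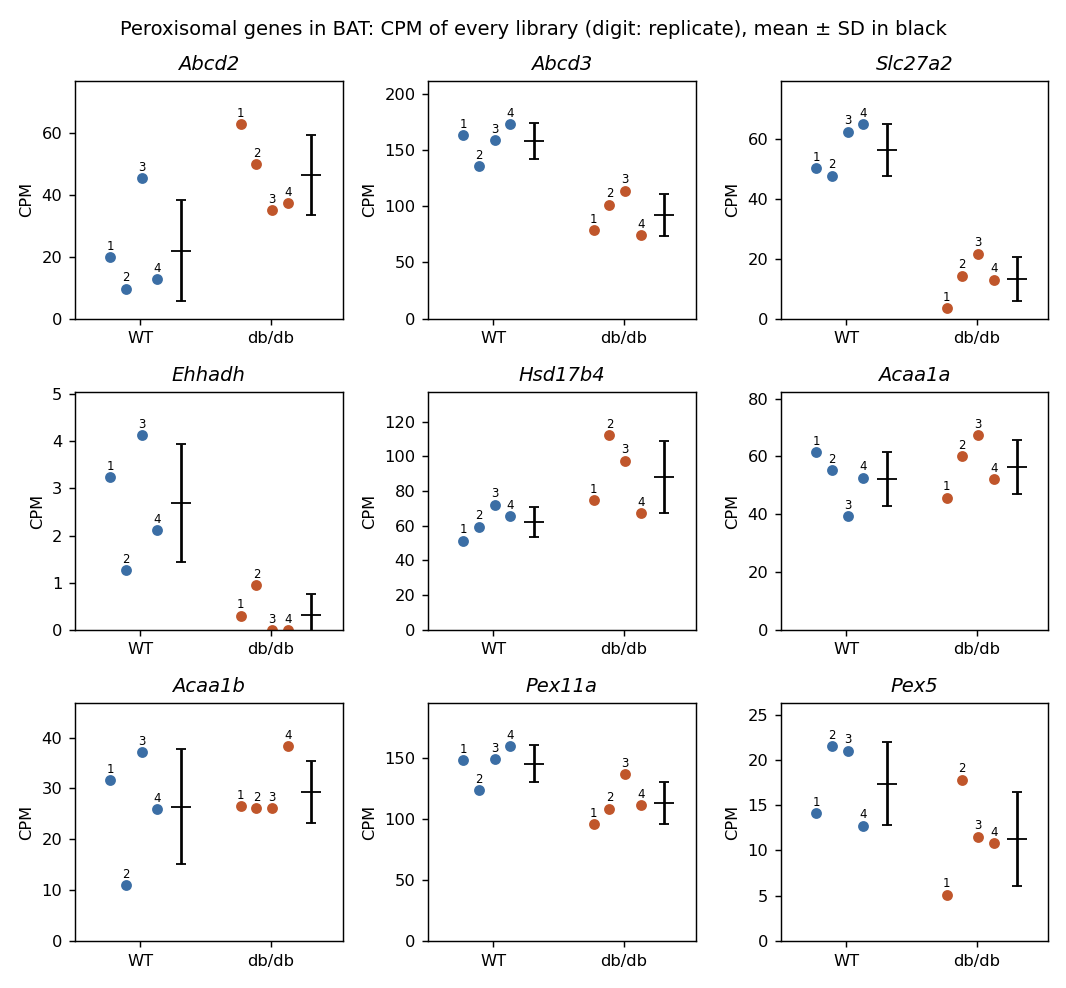
CPM of the 9 genes (vertical axes, each from 0) in the 4 WT libraries (blue) and the 4 db/db libraries (red), with replicate digits and the mean ± SD in black. Slc27a2 and Abcd3 do not overlap between the genotypes, WT replicate 3 of Abcd2 lies at 45.5 CPM inside the db/db range, and the genotypes of Acaa1a and Acaa1b overlap.

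Slc27a2 encodes FATP2, a very-long-chain acyl-CoA synthetase and fatty acid transport protein of peroxisomes and the endoplasmic reticulum. The gene ENSMUSG00000027359 lies on the plus strand at chr2:126552407-126588243 (mm10). Its level in WT was 50.2, 47.7, 62.4 and 64.9 CPM in replicates 1 to 4, and in db/db it was 3.61, 14.3, 21.7 and 13.0 CPM. All 4 db/db libraries were below all 4 WT libraries, and db/db replicate 1 was the lowest, with 12 counts. The mean fell from 56.3 ± 8.63 CPM to 13.2 ± 7.43 CPM (SD, n = 4 each). The fitted level of WT was 4.39-fold higher. The log2 fold change of -2.13 ± 0.31 (SE) had a 95% interval from -2.79 to -1.47 and an adjusted p of 6.91e-05 in edgeR. The call was kept in all 8 fits that left out 1 library and under all 10 other settings. Its exons overlap those of Gm26697 on the opposite strand, which held 0 counts in all libraries.

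Slc27a2 is shown with its promoter because it changed by more than the other 7 genes tested. The window, credited to RefSeq on build GRCm38.p6, covers 250 bases before to 50 after the start site, at chr2:126552774-126553073 on the plus strand. Capitals mark the nuclear receptor half-site AGGTCA, here read on the opposite strand.

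Slc27a2 promoter: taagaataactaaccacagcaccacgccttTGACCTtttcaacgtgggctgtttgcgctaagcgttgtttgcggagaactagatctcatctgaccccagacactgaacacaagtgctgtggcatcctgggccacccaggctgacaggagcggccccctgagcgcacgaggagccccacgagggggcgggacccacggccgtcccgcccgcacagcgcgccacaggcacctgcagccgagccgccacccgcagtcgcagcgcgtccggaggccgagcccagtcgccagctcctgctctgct

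The half-site, searched on both strands, was in 16.3% of the 32851 mouse promoters of the same length. The letters AGGNCA given in tandem in the same direction with 1 base between, the general form of PPAR elements, whose arms can overlap a half-site match, were in 0.381% of all promoters. Promoter windows were read for 7 of the 9 genes, and not for Abcd2 or Hsd17b4. None of the windows read held the tandem pair or the E-box CACGTG, which was in 7.15% of promoters. A match here is a match of letters in one window.

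Abcd3 encodes PMP70, the most abundant protein of the peroxisomal membrane in many tissues, a half-transporter for branched-chain and dicarboxylic acyl-CoA and bile acid precursors. The gene ENSMUSG00000028127 lies on the minus strand at chr3:121758774-121815302. It was read at 163.5, 135.9, 158.9 and 173.2 CPM in WT and at 78.5, 101.5, 113.9 and 74.0 CPM in db/db. The genotypes did not overlap, and db/db replicates 1 and 4 were lowest. The mean fell from 157.9 ± 15.8 to 92.0 ± 18.9 CPM (SD, n = 4 each), with a log2 fold change of -0.78 ± 0.15 (SE), a 95% interval from -1.10 to -0.46 and an adjusted p of 0.00090 in edgeR. Slc27a2 and Abcd3 were 2 of the 8 tested genes whose genotypes did not overlap, against 28.1% of all genes tested.

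Abcd2 encodes ALDRP, a half-transporter that carries very-long-chain and polyunsaturated acyl-CoA. The gene ENSMUSG00000055782 lies on the minus strand at chr15:91145871-91191799. Its level was 19.8, 9.71, 45.5 and 12.7 CPM in WT and 62.9, 49.9, 35.0 and 37.2 CPM in db/db. The other 3 WT libraries lay below every db/db library, but WT replicate 3 was above db/db replicates 3 and 4. The mean was 21.9 ± 16.3 CPM in WT and 46.3 ± 12.9 CPM in db/db (SD, n = 4 each). The fitted rise was 2.10-fold, with a log2 fold change of 1.07 ± 0.34 (SE), a 95% interval from 0.35 to 1.79 and an adjusted p of 0.0262 in edgeR.

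The Abcd2 call depended on single libraries. Without WT replicate 3 the log2 fold change was 1.70 with an adjusted p of 0.000316 in edgeR. The call was lost without WT replicate 1, 2 or 4 (adjusted p = 0.0706, 0.0830 and 0.0902) and without db/db replicate 1 or 2 (adjusted p = 0.0718 and 0.0570, all edgeR). DESeq2 gave a log2 fold change of 1.07 and an adjusted p of 0.117.

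The ratio of Abcd2 to Abcd3 restates these opposite calls without scaling between libraries. Counts of Abcd2 per count of Abcd3 were 0.121, 0.0714, 0.286 and 0.0735 in WT and 0.801, 0.492, 0.307 and 0.503 in db/db. Every db/db library was above every WT library, with WT replicate 3 and db/db replicate 3 close to each other. The ratio was not tested.

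Ehhadh encodes the L-bifunctional enzyme, which hydrates and dehydrogenates the intermediates of dicarboxylic acids and is a classical target of PPARalpha. The gene ENSMUSG00000022853 lies on the minus strand at chr16:21761287-21787807. It was the gene of the 9 that did not pass the filter, with 8, 3, 11 and 5 counts in WT and 1, 3, 0 and 0 counts in db/db. In CPM these were 3.24, 1.27, 4.13 and 2.12 in WT and 0.301, 0.954, 0 and 0 in db/db, so that all 4 db/db libraries were under the lowest WT library, at or below the limit of detection. WT replicate 2 and db/db replicate 2 held the same 3 counts at different depths. Summed counts were 27 in WT and 4 in db/db, a depth-adjusted ratio of 7.81 with a 95% exact interval from 2.72 to 30.7 that covers counting error only. On the log2 CPM scale with a prior count of 2 the difference was -1.70, and the exact two-sided permutation test gave p = 0.0286 (n = 4 against 4), the smallest p that this design allows. Fitted among all genes with at least 1 count, the log2 fold change was -2.87 ± 0.94 (SE) with an adjusted p of 0.0158 in edgeR, a fit in which the gene-wise spread was shrunk entirely to the trend and which can understate p.

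Hsd17b4 encodes the D-bifunctional enzyme, which acts on the same steps as Ehhadh and is required for straight very-long-chain and branched acids. The gene ENSMUSG00000024507 lies on the plus strand at chr18:50128201-50196269. Its level was 51.4, 59.5, 72.1 and 65.4 CPM in WT and 74.9, 112.3, 97.5 and 67.3 CPM in db/db. The genotypes overlapped, since db/db replicate 4 was under WT replicate 3. The mean rose from 62.1 ± 8.81 to 88.0 ± 20.7 CPM (SD, n = 4 each), with a log2 fold change of 0.50 ± 0.17 (SE), a 95% interval from 0.14 to 0.86 and an adjusted p of 0.0374 in edgeR. The call was lost without WT replicate 1, 2 or 4 (adjusted p = 0.128, 0.0943 and 0.0709) and without db/db replicate 2 or 3 (adjusted p = 0.145 and 0.0995, all edgeR). With limma-voom the adjusted p was 0.0504.

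Acaa1a and Acaa1b encode peroxisomal 3-ketoacyl-CoA thiolases A and B, which cleave the last intermediate of each cycle. Both lie on chromosome 9, Acaa1a (ENSMUSG00000036138) on the plus strand at chr9:119339676-119350299 and Acaa1b (ENSMUSG00000010651) on the minus strand at chr9:119148023-119157093. Their coding sequences, of 1275 bases each, were identical at 96.55% of positions and shared 1 unbroken run of 327 bases. The last 75 coding bases, as long as a read here, are shown because they differ only by the substitution G1215A, with the Acaa1a base first and positions counted from 1 at the start of the coding sequence. Capitals mark the differing base in these sequences, which were read from GENCODE M21 transcripts.

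Acaa1a coding end: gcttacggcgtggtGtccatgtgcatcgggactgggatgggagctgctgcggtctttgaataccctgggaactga
Acaa1b coding end: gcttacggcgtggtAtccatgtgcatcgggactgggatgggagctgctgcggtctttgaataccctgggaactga

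Of all 75-base windows along the annotated transcripts, 12.6% of those of Acaa1a and 32.3% of those of Acaa1b also occurred in another gene, so the split of reads between the genes is uncertain. Acaa1a was at 61.5, 55.3, 39.5 and 52.6 CPM in WT and at 45.7, 60.1, 67.4 and 52.1 CPM in db/db. Acaa1b was at 31.6, 10.97, 37.2 and 25.9 CPM in WT and at 26.5, 26.1, 26.2 and 38.3 CPM in db/db. The genotypes overlapped for both genes. For Acaa1b, WT replicates 2 and 4 were under every db/db library and WT replicates 1 and 3 were inside the db/db range.

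The log2 fold change was 0.11 ± 0.17 (SE) for Acaa1a, with a 95% interval from -0.26 to 0.47 and an adjusted p of 0.693 in edgeR. It was 0.14 ± 0.27 (SE) for Acaa1b, with a 95% interval from -0.43 to 0.71 and an adjusted p of 0.749 in edgeR. Counts of both genes summed, which does not depend on how reads shared between these 2 genes were split, gave 0.12 ± 0.14 (SE) with an adjusted p of 0.585 in edgeR. Exons of Acaa1a also overlap Myd88, which held 262 counts over the 8 libraries, and those of Acaa1b overlap Dlec1, which held 4, both on the opposite strand. Falls of the size seen for Abcd3 or Slc27a2 lie outside both intervals.

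The promoters of both thiolase genes are shown for a motif found in each. They are RefSeq windows of the same kind, at chr9:119341044-119341343 on the plus strand and at chr9:119157044-119157343 on the minus strand, with the CCAAT box in capitals on either strand. Each of these windows held 4 matches, 2 of which overlap in Acaa1b. The box was also in windows of Ehhadh and Pex5, and 37.4% of all promoters held at least 1. How many promoters hold 4 was not counted.

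Acaa1a promoter: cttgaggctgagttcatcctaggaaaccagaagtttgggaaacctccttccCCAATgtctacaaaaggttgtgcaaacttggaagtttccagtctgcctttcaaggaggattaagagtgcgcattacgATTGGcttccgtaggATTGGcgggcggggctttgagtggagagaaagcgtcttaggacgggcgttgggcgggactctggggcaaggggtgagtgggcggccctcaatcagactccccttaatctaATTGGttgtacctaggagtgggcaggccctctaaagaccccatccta
Acaa1b promoter: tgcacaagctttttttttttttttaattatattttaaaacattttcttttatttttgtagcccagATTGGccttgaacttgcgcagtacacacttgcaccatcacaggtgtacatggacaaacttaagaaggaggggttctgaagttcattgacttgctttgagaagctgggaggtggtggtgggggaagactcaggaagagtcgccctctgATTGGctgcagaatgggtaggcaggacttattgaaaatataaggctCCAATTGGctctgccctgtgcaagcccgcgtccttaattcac

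Pex11a encodes the Pex11 protein of this family that is induced when peroxisomes proliferate under PPARalpha ligands. The gene ENSMUSG00000030545 lies on the minus strand at chr7:79735957-79743131. Its level was 148.1, 123.7, 149.2 and 159.6 CPM in WT and 96.0, 108.5, 136.5 and 111.6 CPM in db/db. WT replicate 2 was under db/db replicate 3, and the other libraries were separated by genotype. The means of 145.1 ± 15.2 and 113.1 ± 17.0 CPM (SD, n = 4 each) gave a log2 fold change of -0.36 ± 0.14 (SE) with a 95% interval from -0.66 to -0.07, and the adjusted p of 0.0646 in edgeR did not pass. It passed without WT replicate 2 (adjusted p = 0.0473) or db/db replicate 3 (adjusted p = 0.0276, both edgeR).

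Pex5 encodes the receptor that recognises the C-terminal targeting signal of most matrix enzymes and carries them to the peroxisome. The gene ENSMUSG00000005069 lies on the minus strand at chr6:124396816-124415067. Its level was 14.2, 21.5, 21.04 and 12.7 CPM in WT and 5.11, 17.8, 11.5 and 10.8 CPM in db/db, on 17 to 56 counts a library. The genotypes overlapped through db/db replicate 2, and db/db replicate 1 was lowest. The means were 17.4 ± 4.57 and 11.3 ± 5.20 CPM (SD, n = 4 each), and the log2 fold change of -0.62 ± 0.32 (SE), with a 95% interval from -1.29 to 0.05, did not pass (adjusted p = 0.159, edgeR). Without db/db replicate 2 it was -0.95 and passed (adjusted p = 0.0411, edgeR).

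**Figure D2:**
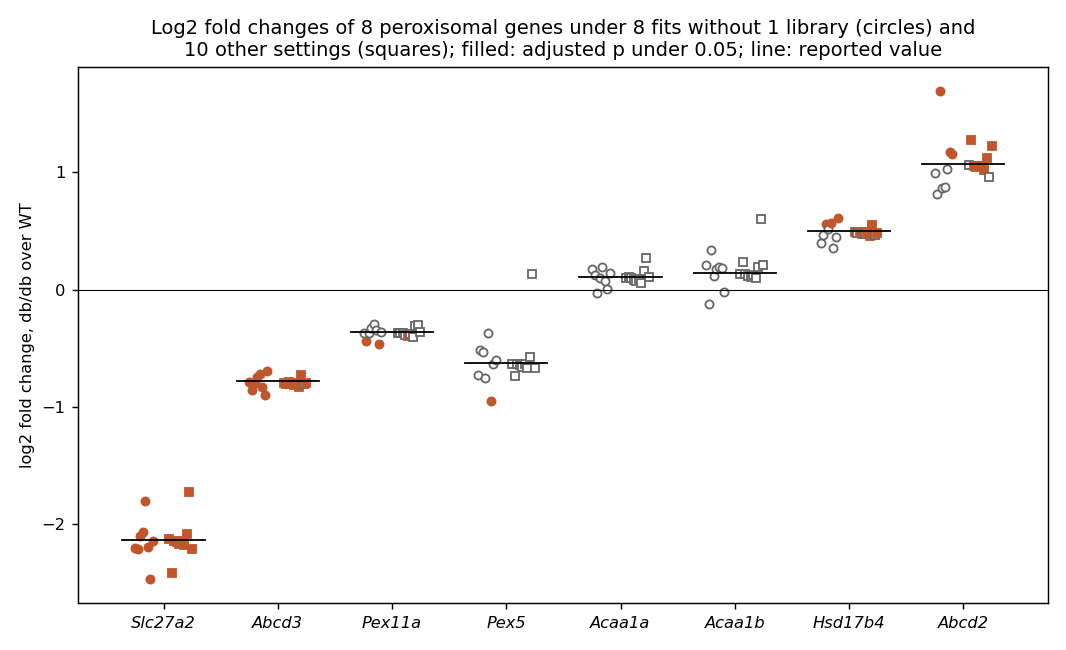
Log2 fold change, db/db over WT (vertical axis), of the 8 tested genes in 8 fits that left out 1 library (circles) and under 10 other settings (squares), filled where the adjusted p was under 0.05, with a line at the reported value. Slc27a2 is filled throughout, Abcd3 in all but 1 setting, and Hsd17b4 and Abcd2 are filled in only 3 of the 8 fits without 1 library each.

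The other 59 peroxisomal genes listed, grouped by role, show where the 9 genes stand in the pathway. Of these, 52 were tested, 20 were lower and 2 were higher in db/db, and 30 did not pass, where 11.9% of all genes tested were lower and 15.8% higher. Their median log2 fold change was -0.38, beside 0.01 over all genes tested, and 20 of the 52 had genotypes that did not overlap, against 28.1% of all genes tested. The same shares of all genes are the background of each group that follows. Exons of Eci3, Acox3, Pxmp2, Pex3, Pex14, Pex16, Gnpat and Crat overlap another annotated gene on the opposite strand, those of Acot4 one on each strand, and their counts are uncertain to that extent. The partner of Gnpat held 1215 counts over the 8 libraries and that of Crat 119, and the partners of the others held fewer.

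Among 18 tested enzymes and helpers of peroxisomal beta-oxidation, 7 fell, 1 rose and 10 did not pass, with a median log2 fold change of -0.31. Eci3, a peroxisomal enoyl-CoA isomerase, fell from 14.1 ± 3.56 to 1.96 ± 0.316 CPM (SD, n = 4 each), and Acot4, an acyl-CoA thioesterase, from 10.2 ± 3.69 to 1.67 ± 0.666 CPM. Their log2 fold changes were -2.84 ± 0.35 and -2.59 ± 0.43 (SE, adjusted p = 1.28e-05 and 0.000199, edgeR). The gene of the group that rose was Acox3, an oxidase of branched-chain acyl-CoA, from 30.0 ± 3.04 to 51.8 ± 12.4 CPM (log2 fold change 0.78 ± 0.19 SE, adjusted p = 0.00482, edgeR).

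Carnitine acyltransferases prepare chain-shortened products for export. Crat, which acts on acetyl groups, fell by 0.48 ± 0.15 on the log2 scale (SE, adjusted p = 0.0241, edgeR). That call was lost without WT replicate 1 or 4 (adjusted p = 0.0646 and 0.0704), without db/db replicate 1 (adjusted p = 0.0612) and with a skeletal muscle score of each library as a covariate (-0.29, adjusted p = 0.586, all edgeR). Crot, which acts on medium chains, had a log2 fold change of 0.18 ± 0.25 (SE, adjusted p = 0.639, edgeR), and the difference between these genes was not tested. Scp2, which yields the thiolase of branched chains, had -0.05 ± 0.15 (SE, adjusted p = 0.853, edgeR).

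Of 8 other membrane proteins and carriers, 4 fell, 1 rose and 3 did not pass. The membrane proteins Pxmp2, a channel former, and Pxmp4 fell from 128.9 ± 14.5 to 69.5 ± 15.9 CPM and from 161.5 ± 12.6 to 99.7 ± 10.9 CPM (SD, n = 4 each). Their log2 fold changes were -0.89 ± 0.17 and -0.69 ± 0.13 (SE, adjusted p = 0.000632 and 0.000661, edgeR). Fis1, a fission factor shared with mitochondria, rose by 0.70 ± 0.18 on the log2 scale (SE, adjusted p = 0.00686, edgeR).

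Of 14 other peroxins tested, 4 fell, 0 rose and 10 did not pass, with a median log2 fold change of -0.43. Pex3 and Pex16, which with Pex19 insert membrane proteins into the peroxisome, fell, with log2 fold changes of -1.05 ± 0.16 and -0.69 ± 0.21 (SE, adjusted p = 0.000128 and 0.0219, edgeR). Pex6, an ATPase that recycles Pex5, and Pex10, a ligase that ubiquitinates it, had log2 fold changes of -0.76 ± 0.18 and -1.10 ± 0.33 (SE, adjusted p = 0.00439 and 0.0174, edgeR). The Pex16 call was lost without WT replicate 3 or 4 (adjusted p = 0.0845 and 0.0522) or db/db replicate 3 (adjusted p = 0.0679), and the Pex10 call without WT replicate 2 (adjusted p = 0.0590) or db/db replicate 4 (adjusted p = 0.0523, all edgeR). Pex19 and Pex14, the docking protein of the import pore, had log2 fold changes of -0.22 ± 0.14 and -0.17 ± 0.18 that did not pass (SE, adjusted p = 0.260 and 0.526, edgeR).

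Of 12 tested enzymes of ether lipid synthesis, alpha-oxidation, antioxidant defence and other roles, 5 fell and 7 did not pass. Catalase (Cat), which removes the hydrogen peroxide of the cycle, fell from 494.5 ± 58.4 to 274.6 ± 24.5 CPM. The log2 fold change was -0.85 ± 0.13 (SE, adjusted p = 0.000115, edgeR). Gnpat, the first acyltransferase of plasmalogen synthesis, and Mlycd, malonyl-CoA decarboxylase, had log2 fold changes of -0.64 ± 0.13 and -0.58 ± 0.15 (SE, adjusted p = 0.000909 and 0.00616, edgeR). Phyh, which opens alpha-oxidation of phytanic acid, had a log2 fold change of 0.07 ± 0.16 (SE, adjusted p = 0.771, edgeR).

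**Figure D3:**
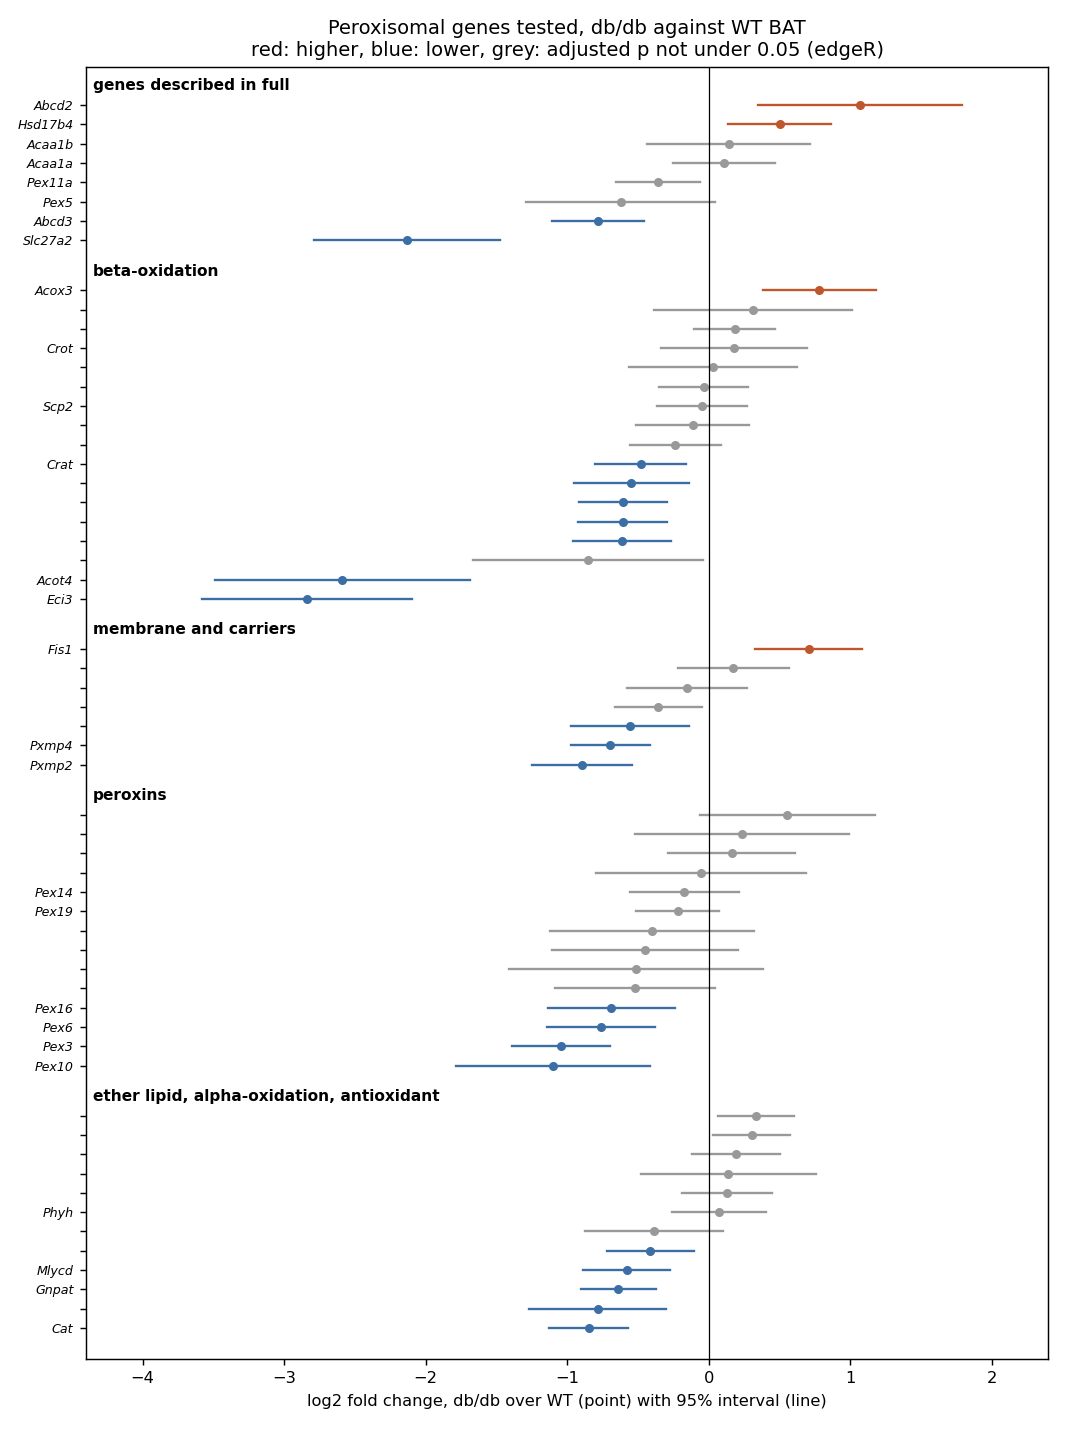
Log2 fold change, db/db over WT, with 95% interval (horizontal axis) of tested peroxisomal genes by group, coloured red where higher, blue where lower and grey where the adjusted p was not under 0.05 in edgeR, with labels on genes named in the text and a few tested genes not drawn. Blue genes outnumber red in every group but the first, and Eci3, Acot4 and Slc27a2 lie farthest to the left.

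Peroxisomal products are finished in mitochondria, and of 17 tested genes of mitochondrial beta-oxidation 7 fell, 1 rose and 9 did not pass, with a median log2 fold change of -0.32. Hadha and Echs1, which act on the hydration steps there, fell, with log2 fold changes of -0.75 ± 0.15 and -0.80 ± 0.15, and the electron carrier Etfb had -0.89 ± 0.17 (SE, adjusted p = 0.00131, 0.000819 and 0.000568, edgeR). All 3 overlap another annotated gene, Echs1 the gene Paox on the opposite strand with 455 counts. The carnitine palmitoyltransferase gene Cpt1b was listed at 0 or 1 count in every library. Another annotated gene on its strand overlaps it, so these counts do not show whether it was expressed. Cpt1b was not tested.

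Of 16 tested PPAR receptors, partners and targets, 6 fell, 2 rose and 8 did not pass, with a median log2 fold change of -0.58. Ppara, which encodes PPARalpha, fell from 94.1 ± 29.9 to 34.6 ± 19.4 CPM, a log2 fold change of -1.46 ± 0.31 (SE, adjusted p = 0.00165, edgeR). Its partners Ppargc1a and Ppargc1b fell as well (log2 fold changes -0.79 ± 0.23 and -1.19 ± 0.22), as did the targets Acot1 and Plin5 (-2.15 ± 0.24 and -0.83 ± 0.16, SE, adjusted p = 0.0158, 0.000491, 4.57e-06 and 0.000593, edgeR). Pparg, the receptor of fat cell differentiation, had a log2 fold change of -0.39 ± 0.29 (SE, adjusted p = 0.341, edgeR). Without db/db replicate 2 it was -0.82 and passed (adjusted p = 0.0218), without db/db replicate 1 it was -0.16 (adjusted p = 0.690, both edgeR), and in the fit to every gene with at least 1 count it was -0.43 (adjusted p = 0.0468, edgeR). The Ppargc1a call was lost without WT replicate 4 (adjusted p = 0.0732, edgeR). With a score of the skeletal muscle markers of each library as a covariate, Acot1 and Plin5 passed, whereas Ppara (-0.91, adjusted p = 0.211), Ppargc1b (-0.65, adjusted p = 0.245) and Ppargc1a (-1.02, adjusted p = 0.121) did not, and Pparg turned to 0.59 (adjusted p = 0.439, all edgeR).

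Markers of other cell types moved with genotype. In bulk tissue, fewer cells of a type and less RNA per cell cannot be told apart. Summed CPM of 8 mature adipocyte markers lay between 18566 and 27266 in WT and between 18032 and 23103 in db/db, with 2 of the 8 higher and 3 lower by edgeR. Of 20 skeletal muscle markers 19 were higher, and their sum lay between 535.4 and 1886 CPM in WT and between 2753 and 13999 CPM in db/db. All 12 macrophage markers were higher, with sums between 168.0 and 221.7 CPM in WT and between 922.0 and 1677 CPM in db/db. Of 11 tested stromal vascular markers 8 were higher, with sums between 658.8 and 751.2 CPM in WT and between 1223 and 2359 CPM in db/db.

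The highest muscle, macrophage and stromal vascular sums (13999, 1677 and 2359 CPM) were all in db/db replicate 1, which also held the least Slc27a2 and Pex5. Without that library 3 of the 8 tested genes (1 higher, 2 lower) and 20 other peroxisomal genes (3 higher, 17 lower) were called, beside 2250 of all 9385 genes of that fit (1281 higher, 969 lower), and the log2 fold changes of Slc27a2 and Abcd3 were -1.80 and -0.72 (adjusted p = 5.03e-06 and 0.00225, edgeR). With the muscle score of each library as a covariate, which follows genotype closely, Slc27a2 passed (-1.72, adjusted p = 0.0297), whereas Abcd3 (-0.80, adjusted p = 0.0703), Abcd2 (0.96, adjusted p = 0.361) and Hsd17b4 (0.46, adjusted p = 0.421, all edgeR) did not, and Pex5 turned to 0.13. Among the other peroxisomal genes named, Eci3, Acox3, Pxmp2, Pex3 and Cat passed with the covariate, and Acot4, Crat, Pxmp4, Fis1, Pex6, Pex10, Pex16, Gnpat and Mlycd did not (adjusted p from 0.0621 to 0.586, edgeR). Of the calls lost, the log2 fold changes of Pxmp4 (-0.69), Fis1 (0.69), Pex16 (-0.69), Mlycd (-0.76) and Pex10 (-1.53) were about as large as without the covariate or larger, those of Acot4 (-2.26), Pex6 (-0.64) and Gnpat (-0.55) were slightly smaller, and that of Crat was smaller (-0.29). Of the mitochondrial genes named, Hadha (-0.59, adjusted p = 0.174), Echs1 (-0.43, adjusted p = 0.322) and Etfb (-0.54, adjusted p = 0.236, all edgeR) did not pass. Slc27a2 is abundant in liver and kidney. Of 12 hepatocyte markers, 7 were at 0 in every library and 9 never exceeded 3 counts, and all 7 kidney tubule markers were at 0. The hepatocyte sums lay between 51.5 and 298.7 CPM in WT and between 54.5 and 108.3 CPM in db/db. Alb, the albumin gene, held 0, 0, 4 and 1 counts in WT and 12, 7, 5 and 3 counts in db/db. The sums were made up almost wholly of Trf, the transferrin gene, which was the 1 hepatocyte marker tested and fell by 1.14 ± 0.38 on the log2 scale (SE, adjusted p = 0.0328, edgeR), with overlapping genotypes. The part of macrophages, stroma and muscle in the differences was otherwise not tested.

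**Figure D4:**
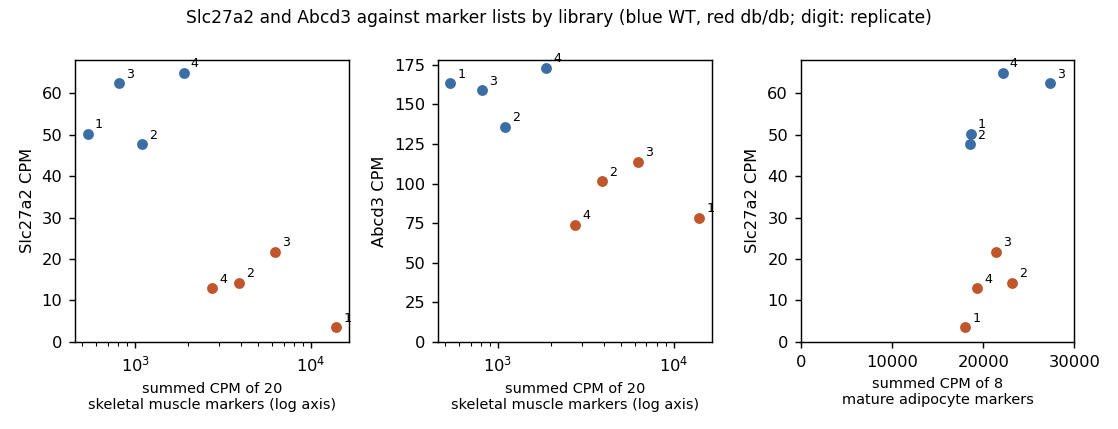
Slc27a2 and Abcd3 (CPM, vertical axes) against the summed CPM of 20 skeletal muscle markers (log axis) and Slc27a2 against that of 8 mature adipocyte markers, by library, blue for WT and red for db/db, with replicate digits. Muscle sums separate the genotypes, from 1886 CPM at most in WT to 2753 CPM at least in db/db, whereas the adipocyte sums of the genotypes overlap.

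Genes whose levels followed each of the 9 most closely within genotypes were found by Pearson's r of deviations of log2 CPM from the genotype means over the 8 libraries, among 4530 genes of at least 20 CPM on average. Slc27a2 was followed by the mitochondrial carnitine-acylcarnitine carrier Slc25a20 (r = 0.98) and Oxld1 (r = 0.97). Abcd2 was followed by the mitochondrial carbonic anhydrase Car5b (r = 0.98), Cyp2e1 and the beta-3 adrenergic receptor Adrb3 (both r = 0.96), and Abcd3 by Celf2 (r = 0.96) and Purb (r = 0.93).

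Hsd17b4 was followed by Smim10l1, Ces1d and Phc3 (r from 0.96 to 0.97), Acaa1a by Ralgapa2 (r = 0.99), Itpr2 and Ntrk3, Acaa1b by Cr1l, Zfp622 and Pds5b (r from 0.95 to 0.97), and Pex11a by Magoh, Pgls and Retsat (r from 0.93 to 0.96). Ehhadh and Pex5 were below the level required. With 8 points that share library and depth, and 4530 genes compared, high values of r are given as a description.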

How the data were processed

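Bulk BAT RNA-seq libraries of 4 WT and 4 db/db mice were analysed, grouped by their titles. The authors prepared single-end libraries of 75 cycles through a commercial digital mRNA-seq service. The authors deposited raw counts per Ensembl gene, made, per the study's methods, with bbduk trimming, STAR alignment to mm10 and HTSeq-count, whereas the submitters' processing notes name Trimmomatic, HISAT2 and DESeq2. Strand setting and handling of molecular identifiers are not given in the sources used here, so PCR copies may be counted, and reads of overlapping genes cannot be told apart by strand. The authors' normalized table and sample sheet were not used.

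Of 31053 genes, 31011 matched GENCODE M21 (mm10), and the unmatched 42 held at most 0.00213% of any library. Genes passing filterByExpr (minimum count 10, minimum total 15) were scaled by TMM and tested with edgeR 4.0.16 (R 4.3.3), quasi-likelihood F test, genotype as the only term, Benjamini-Hochberg adjusted over all 9264 genes at 0.05. SE were derived from the F statistic. CPM use filtered totals times TMM factors. The script was tested on simulated counts. Ehhadh was compared by an exact permutation test over 70 splits. The Ehhadh ratio interval and the floors cover counting error only, and the intervals of log2 fold changes include the spread between libraries.

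The 9 genes, the gene lists and the rule for naming were chosen with earlier results of these data known. Named were the 9 genes, the 3 genes of smallest adjusted p past 0.05 of each other list, a set list of pathway genes whatever their result, and the 3 genes most like each of the 9 with a mean of at least 20 CPM. Some lists share genes, and results for a few genes the rule names are not reported here. Alternatives were DESeq2 1.42.0, limma-voom (limma 3.58.1), other scalings, filters and covariates, and each library left out. Promoters came from RefSeq (GRCm38.p6), and 75-base windows from GENCODE transcripts.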

Additional observations from a re-analysis of the deposited data

Results flagged for a closer look

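Within-genotype values of 78 sets of 4 libraries (named genes with each genotype) were examined with Dixon's test at 95%, where chance gives about 1 in 20, or 3.9 sets, and 3 sets held a library far from the other 3. Acaa1b in db/db replicate 4 was at 38.3 CPM, with the other db/db libraries between 26.1 and 26.5 CPM, on 103 counts against 59 to 88. Echs1, the mitochondrial enoyl-CoA hydratase, was at 193.4 CPM in db/db replicate 1 and between 300.3 and 320.7 CPM in the others. Scp2 was at 123.0 CPM in WT replicate 1 and between 158.3 and 162.0 CPM in the others.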

How the results depend on the processing

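The called values of the named genes that were recomputed kept their direction under the alternatives run, which did not include the marker genes. When the muscle score was a term of the model (the mean z-score of the muscle markers as covariate), calls fell to 673 of all genes (492 higher, 181 lower), 1 of the 9 genes and 5 of the other peroxisomal genes. Without 1 library each, calls ran from 2236 to 2483 for all genes, from 2 to 4 for the 9 genes and from 17 to 21 for the other peroxisomal genes. The 2 was reached without WT replicate 1 and without WT replicate 4, where Abcd2 and Hsd17b4 were lost. The Ehhadh difference ran from -1.95 to -1.50 without 1 library each, with exact permutation p = 0.0571 without WT replicate 1, 3 or 4 or db/db replicate 3 or 4, and was -2.82 with a prior count of 0.5. Acaa1a turned to -0.03 without WT replicate 3, and Acaa1b to -0.12 without WT replicate 2 and -0.02 without db/db replicate 4. Same-numbered libraries did not deviate together (correlations from -0.08 to 0.05), and a replicate block gave 2557 calls over all genes, 4 of the 9 genes and 21 of the other peroxisomal genes. DESeq2 called 3 of the 9 genes and 2527 of all 9264, limma-voom 3 and 2538 of 9264, and the fit to every gene 5 and 3170 of 16410. Of 304 comparisons of named genes without 1 library, 22 lost and 7 gained a call. With the covariate 19 of 38 lost it, and under the other settings 3 of 339 lost and 8 gained one. At this depth, levels such as those of Ehhadh are near the limit of detection.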

Other observations

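Of the 7 other listed peroxisomal genes that were not tested, Acot3, an acyl-CoA thioesterase next to Acot4, held 10, 0, 6 and 5 counts in WT and 0 in all 4 db/db libraries. Far1, the fatty acyl-CoA reductase of ether lipid synthesis, held 6, 2, 5 and 3 counts in WT and 14, 24, 19 and 8 counts in db/db, and every db/db library was above every WT library. Hao2 and Pipox were at 0 in every library, and Acox2, Far2 and Pex5l never exceeded 3 counts. These genes were named after their values were seen. Those with a count were tested in the fit to every gene with at least 1 count. There, 25 of 57 other peroxisomal genes were called (3 higher, 22 lower), beside 3170 of all 16410 genes of that fit (1855 higher, 1315 lower). Without WT replicate 1, 2, 3 or 4 or db/db replicate 4, 53 of the other peroxisomal genes passed the count filter, beside 52 with all libraries. Those fits therefore also tested a gene of this kind.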
